A study of Mus musculus with 24 samples.

Results

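Kat2b, Plekha2, Zfp365 and Mcam are 4 genes of 55487 in the count tables, selected on these same counts because their transcript levels were lower after induction of DUX in at least 1 cell line. Their lower levels with the inducer therefore follow from the choice and are given as a description with no test. Differences between the lines at a fixed inducer state were not the contrast of the rule and were tested. The libraries they compare did enter the choice, so these tests are not independent of it. Choice by a fall in a line favours a high level there without the inducer and a low level with it. The cells are KH2 mouse embryonic stem cells (ESCs), in which DUX is expressed from a transgene that doxycycline switches on (TRE_DUX), present in all groups. They were sequenced without doxycycline (DOX) and after 16 h of it. The 24 libraries form 12 groups of 2. WT and DUXBL-KO make up a plain set of 8 libraries. The pLV2 set of 16 libraries holds TRIM33-KO pLV2 and TRIM24-KO pLV2 beside a pair of controls, WT pLV2 line 1 and WT pLV2 line 2. The meaning of pLV2 is not given in the labels, nor the WT line each knockout derives from, nor whether the 2 libraries of a group came from separate cultures, so p-values measure only the spread between these libraries, which may be technical.

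DUX is a homeodomain transcription factor that is active in the early embryo and, when forced in ESCs, switches on genes of the 2-cell stage. The 4 genes described here serve different processes. Kat2b encodes PCAF, a lysine acetyltransferase that acts on histones and other proteins as part of SAGA-type and ATAC-type coactivator complexes. Plekha2 encodes TAPP2, an adaptor with pleckstrin homology domains that binds phosphoinositides made downstream of PI3K. Zfp365 encodes a zinc finger protein that is linked to the centrosome, to genome stability and to p53. Mcam encodes CD146, an immunoglobulin-type adhesion molecule of the cell surface that is best known from endothelium, pericytes and melanoma.

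Gene counts per library lay between 11784696 and 19136869, and repeat subfamilies took 7.58% to 22.98% of all counts. The gene CT010467.1 took up to 30.4% of gene counts, in the library labelled TRIM24-KO with DOX replicate 2. It took 12.9% in TRIM33-KO with DOX replicate 2 and at most 1.30% in the other 22 libraries. Dux (Duxf3) had 0 to 2 counts in every library titled as without DOX and 20 to 110 counts in every one titled as with DOX, and the titles define the groups here because a treatment tag differs from the title in 8 libraries. Trim33 was at 20.3 and 21.4 CPM (gene counts scaled to a common library size) in TRIM33-KO without DOX against 115 to 140 CPM in the WT pLV2 libraries without DOX. Trim24 (120 to 137 CPM) in libraries labelled TRIM24-KO lay between WT pLV2 line 1 (94.5 to 100.2 CPM) and line 2 (165 to 199 CPM). Duxbl1 had 16 and 6 counts without DOX in libraries labelled DUXBL-KO against 24 and 6 in WT, and with DOX 169 and 91 against 139 and 59. The ranges of Duxbl1 overlapped at both DOX states, at few counts without DOX, and Trim24 was not below both WT lines, so neither transcript separates the libraries labelled as its knockout from the controls. The names DUXBL-KO and TRIM24-KO stand below for libraries so labelled. Which part of either gene was to be deleted is not given in the sources used here. The pluripotency genes Pou5f1 (500.1 to 833 CPM), Sox2 (242 to 483 CPM) and Nanog (315 to 713 CPM) were present in all 24 libraries.

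Kat2b (ENSMUSG00000000708.14) lies on the plus strand of chromosome 17 from 53566861 to 53672720 (GRCm38). Plekha2 (ENSMUSG00000031557.16) lies on the minus strand of chromosome 8 from 25039144 to 25102376. Zfp365 (ENSMUSG00000037855.15) lies on the minus strand of chromosome 10 from 67886103 to 67912662, and Mcam (ENSMUSG00000032135.15) on the plus strand of chromosome 9 from 44134469 to 44142727. All 4 are protein-coding. Genes on the opposite strand overlap 3 of them. Gm6919 within Kat2b had at most 1 count, Gm16933 and 5830408C22Rik within Plekha2 had at most 3 and 44 counts against at least 231 for Plekha2, and the antisense gene Gm10687 within Mcam had at most 27 against at least 274 for Mcam. Whether the authors counted by strand is not given in the sources used here.

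The promoters are shown as a description. Across libraries Zfp365 and Mcam correlated more with each other (Pearson r 0.833) than with Kat2b (0.014 and 0.291), as described further on. Those correlations include the DOX changes used in the choice, and shared regulation was not tested. Each line gives the bases of the gene's window in the RefSeq promoter table (GRCm38.p6) that lie before the first base of the gene at the coordinates above, 5′ to 3′ on the gene's own strand, with each CpG in capitals. The window is set on the RefSeq start, which lies at that first base for Zfp365 and further downstream for Mcam and Kat2b, so the latter stretches end upstream of the RefSeq start. The coordinates are chr9:44134408-44134468 (plus strand) for Mcam, chr10:67912663-67912912 (minus strand) for Zfp365 and chr17:53566721-53566860 (plus strand) for Kat2b.
Mcam: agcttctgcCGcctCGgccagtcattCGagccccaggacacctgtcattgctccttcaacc
Zfp365: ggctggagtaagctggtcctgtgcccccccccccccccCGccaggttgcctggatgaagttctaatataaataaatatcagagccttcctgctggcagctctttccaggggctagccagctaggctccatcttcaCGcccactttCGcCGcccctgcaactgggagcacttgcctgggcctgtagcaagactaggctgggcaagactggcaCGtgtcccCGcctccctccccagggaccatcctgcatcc
Kat2b: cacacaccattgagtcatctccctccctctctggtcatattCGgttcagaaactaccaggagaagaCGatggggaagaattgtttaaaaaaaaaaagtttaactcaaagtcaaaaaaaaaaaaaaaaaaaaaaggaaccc
The whole table window runs from 250 bases before to 50 bases after a start. It held 29 CpG and 72.7% GC at Mcam, 8 CpG and 61.3% GC at Zfp365 and 11 CpG and 47.0% GC at this start of Kat2b, against a median of 7 CpG over 32851 windows. The letters TAAT, the core of many homeodomain sites, were found on either strand 0 times at Mcam, 1 time at Zfp365 and 1 time at this Kat2b start, and at least once in 58.0% of all windows. A match of these letters is no evidence of binding.

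Without DOX the 4 genes were expressed at moderate levels in every line. Per kilobase of annotated exon, the WT mean was 27.5 CPM for Mcam, 17.1 for Kat2b, 9.27 for Zfp365 and 5.86 for Plekha2. In line 1 Kat2b was at 14.9 CPM per kilobase, Mcam at 9.79, Plekha2 at 7.11 and Zfp365 at 3.19, and line 2 and TRIM24-KO had the same order. In TRIM33-KO Mcam (15.4) was above Kat2b (14.5). The closest relative of Kat2b, Kat2a (GCN5), had a mean of 47.0 CPM per kilobase in WT, above Kat2b in this measure.

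Kat2b levels with and without DOX overlapped in the plain set, and were lower with DOX in the pLV2 set. In WT it had 79.9 and 86.1 CPM without DOX and 76.6 and 84.5 with it. In libraries labelled DUXBL-KO it had 75.7 and 87.8 CPM without DOX and 63.8 and 77.8 with it. In WT pLV2 line 1 Kat2b went from 72.6 and 72.4 CPM to 53.05 and 51.8 with DOX. In line 2 it went from 66.0 and 70.1 CPM to 40.8 and 43.0. The libraries labelled TRIM24-KO had 73.7 and 74.8 CPM without DOX and 51.7 and 49.4 with it, and those of TRIM33-KO had 72.3 and 68.5 without and 40.7 and 40.7 with it. Each of the 8 pLV2 libraries with DOX was below each of the 8 without it. The fitted log2 changes with DOX were -0.04 ± 0.13 (SE) in WT, -0.21 ± 0.13 in DUXBL-KO, -0.47 ± 0.06 in line 1, -0.70 ± 0.06 in line 2, -0.55 ± 0.06 in TRIM24-KO and -0.79 ± 0.06 in TRIM33-KO. With single libraries left out it ran from -0.11 to 0.042 in WT, so that its sign turned, and from -0.38 to -0.079 in DUXBL-KO.

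The level of Kat2b without DOX varied little among lines, between 68.03 ± 2.86 CPM (SD, n = 2) in line 2 and 83.03 ± 4.38 in WT. With DOX the pLV2 lines fell into the order line 1 (52.4 ± 0.86 CPM), TRIM24-KO (50.6 ± 1.59), line 2 (41.9 ± 1.53) and TRIM33-KO (40.7 ± 0.04), in which no neighbouring ranges overlapped. Within the plain set all neighbouring ranges overlapped.

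Plekha2 was lower with DOX in all 6 lines, without overlap in any, and its level without DOX differed between lines more than that of Kat2b. WT had 35.5 and 29.9 CPM without DOX and 27.1 and 24.7 with it. Libraries labelled DUXBL-KO had 26.0 and 19.0 CPM without DOX and 16.3 and 14.7 with it, and the last pair were the lowest in the series. WT pLV2 line 1 went from 40.5 and 38.9 CPM to 27.6 and 29.7. The other pLV2 lines started higher. Line 2 went from 60.5 and 54.6 CPM to 25.6 and 25.4. Libraries labelled TRIM24-KO went from 71.7 and 62.0 CPM to 50.9 and 45.0, and TRIM33-KO went from 69.0 and 68.1 to 23.3 and 25.0. With DOX the WT, line 1, line 2 and TRIM33-KO libraries thus lay together between 23.3 and 29.7 CPM, while those labelled TRIM24-KO lay above and those labelled DUXBL-KO below. The log2 changes were -0.34 ± 0.18 in WT, -0.54 ± 0.18 in DUXBL-KO, -0.47 ± 0.09 in line 1, -1.18 ± 0.09 in line 2, -0.47 ± 0.09 in TRIM24-KO and -1.51 ± 0.09 in TRIM33-KO. Without replicate 1 without DOX it was -0.21 in WT and -0.32 in DUXBL-KO.

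Zfp365 showed the opposite distribution over the sets. In WT it went from 44.7 and 51.8 CPM without DOX to 24.4 and 22.4 with it. In libraries labelled DUXBL-KO it went from 47.6 and 56.5 CPM to 20.9 and 17.2. In the pLV2 set its level without DOX was already at 16.4 to 25.8 CPM, against 17.2 to 24.4 CPM in the plain set with DOX. Line 1 had 16.4 and 16.8 CPM without DOX and 16.1 and 13.998 with it. Line 2 had 20.2 and 18.9 without and 23.9 and 19.8 with it, TRIM24-KO 25.4 and 25.8 without and 26.4 and 28.1 with it, and TRIM33-KO 22.8 and 22.0 without and 22.9 and 26.9 with it. Both DOX libraries were below both others in WT, DUXBL-KO and line 1, the groups overlapped in line 2, and both DOX libraries were above both others in TRIM24-KO and TRIM33-KO. The log2 changes were -1.05 ± 0.15 in WT, -1.45 ± 0.15 in DUXBL-KO, -0.14 ± 0.12 in line 1, 0.16 ± 0.11 in line 2, 0.09 ± 0.11 in TRIM24-KO and 0.15 ± 0.11 in TRIM33-KO. In line 2 it was 0.011 without DOX replicate 1 and 0.29 without DOX replicate 2. With single libraries left out it ran from -0.25 to -0.043 in line 1, 0.051 to 0.12 in TRIM24-KO and 0.10 to 0.26 in TRIM33-KO.

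Mcam was lower with DOX in every line, by the larger amounts in the plain set. WT had 93.5 and 90.6 CPM without DOX and 63.1 and 52.2 with it. Libraries labelled DUXBL-KO had 75.2 and 87.7 CPM without DOX and 39.5 and 37.5 with it. As for Zfp365, the pLV2 libraries without DOX (29.6 to 52.4 CPM) lay well below the plain ones. Line 1 went from 36.02 and 29.6 CPM to 27.8 and 24.4, and line 2 from 42.3 and 38.3 to 35.8 and 33.8. TRIM24-KO went from 43.8 and 44.8 CPM to 36.3 and 34.8, and TRIM33-KO from 52.4 and 50.9 to 39.3 and 47.7. No groups overlapped within a line. The log2 changes were -0.67 ± 0.12 in WT, -1.08 ± 0.13 in DUXBL-KO, -0.33 ± 0.11 in line 1, -0.21 ± 0.11 in line 2, -0.32 ± 0.11 in TRIM24-KO and -0.25 ± 0.10 in TRIM33-KO. In line 1 it was -0.14 and in line 2 -0.11 without replicate 1 without DOX, and in TRIM33-KO it was -0.12 without DOX replicate 1.

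**Figure D1:**
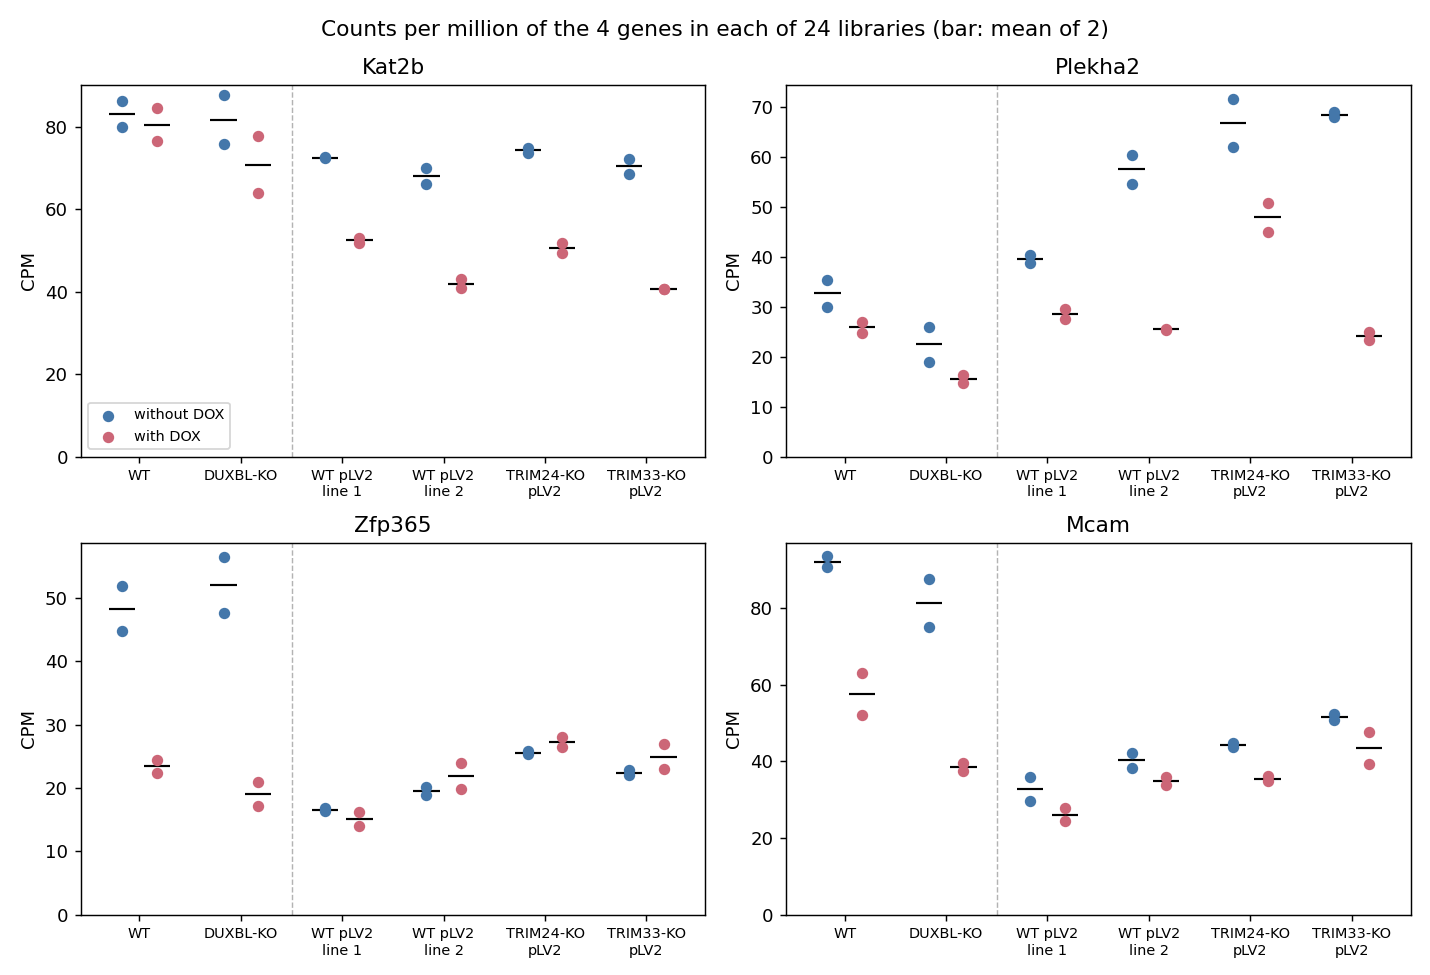
CPM of Kat2b, Plekha2, Zfp365 and Mcam in each of 24 libraries (points), by line on the horizontal axis and by DOX (colour), with the mean of 2 libraries as a bar. The dashed line parts the plain set from the pLV2 set, which were scaled apart, and shows Zfp365 at 44.7 to 56.5 CPM without DOX on its left and at 16.4 to 25.8 CPM on its right.

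The plain and pLV2 sets were scaled and fitted apart, so levels set side by side across them carry any difference between the sets, and set and line cannot be told apart. In the count of genes whose DOX libraries were both below both libraries without DOX, the 4 genes gave 3 in WT, where 20.1% of all genes tested did so, and 3 in DUXBL-KO (19.7%). They gave 4 in line 1 (33.5%), 3 in line 2 (35.6%), 3 in TRIM24-KO (26.6%) and 3 in TRIM33-KO (40.7%). Zfp365 was the 1 gene with both DOX libraries above in TRIM24-KO, as for 28% of all genes, and in TRIM33-KO (28.2%). These counts follow from how the genes were chosen. In bulk RNA, fewer cells that express a gene and less RNA per cell cannot be told apart.

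**Figure D2:**
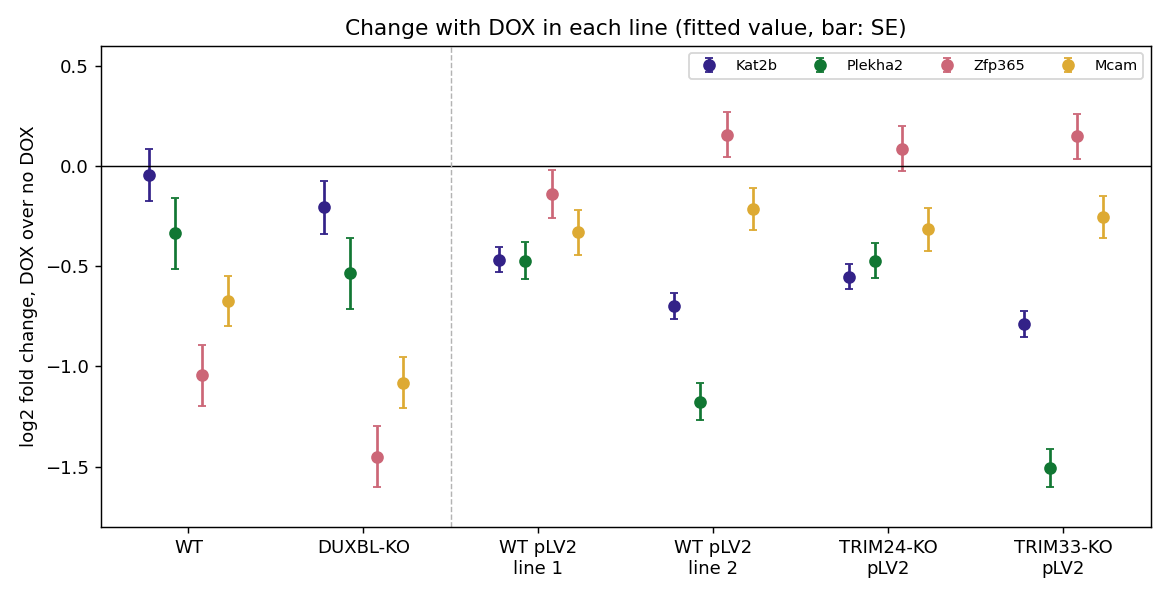
Fitted log2 fold change with DOX (points) and its SE (bars) for the 4 genes in 6 lines, with no change at the horizontal line. Zfp365 and Mcam have their lowest values left of the dashed line, in WT and DUXBL-KO (-0.67 to -1.45), whereas Kat2b and Plekha2 have theirs in line 2 and TRIM33-KO (-0.70 to -1.51).

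Within the pLV2 set the change of Plekha2 with DOX ran from -0.47 to -1.51, and over all 6 lines that of Zfp365 ran from -1.45 to 0.16. For Plekha2 the change in TRIM33-KO was more negative than the mean of both WT pLV2 lines by a log2 difference of -0.68 ± 0.11 (SE), and in libraries labelled TRIM24-KO it was less negative by 0.35 ± 0.11. The WT lines themselves differed by -0.70 ± 0.13 (line 2 minus line 1), as much as TRIM33-KO from their mean, so these values depend on the WT line taken. Against line 1 alone the difference for TRIM24-KO was -0.0011 ± 0.13, and against line 2 alone it was 0.70 ± 0.13. The difference for TRIM33-KO was -1.04 ± 0.13 with line 1 as the control and -0.33 ± 0.13 with line 2. For Kat2b the difference from the mean was -0.21 ± 0.08 in TRIM33-KO, or -0.32 ± 0.09 from line 1 and -0.092 ± 0.09 from line 2, and 0.03 ± 0.08 in TRIM24-KO. In DUXBL-KO the change minus that in WT was -0.41 ± 0.21 for Zfp365, -0.41 ± 0.18 for Mcam, -0.20 ± 0.25 for Plekha2 and -0.16 ± 0.18 for Kat2b. No p is given for any of these, since the rule used the same contrasts.

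The extent of the 2-cell response differed between lines in the same libraries. The summed level of 23 genes of a 2-cell list with DOX was 1692 to 3925 CPM in WT and 3194 to 4715 in DUXBL-KO. It was 3342 to 4012 CPM in line 1, 3523 to 5158 in TRIM24-KO, 7884 to 10342 in line 2 and 13610 to 15195 in TRIM33-KO. Among the pLV2 lines, line 1 and TRIM24-KO had the lower sums and the smaller Plekha2 changes (-0.47 in both), and line 2 and TRIM33-KO had the higher sums and the larger changes (-1.18 and -1.51). Dux counts with DOX had another order, with line 1 at 95 and 110, line 2 at 53 and 58, TRIM24-KO at 24 and 38 and TRIM33-KO at 54 and 78. Repeat subfamilies took 11.8% to 11.999% of counts in line 1, 10.2% to 12.5% in TRIM24-KO, 17.3% to 19.3% in line 2 and 18.9% to 23.0% in TRIM33-KO. The part of these measures in the changes of the 4 genes was not tested.

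**Figure D3:**
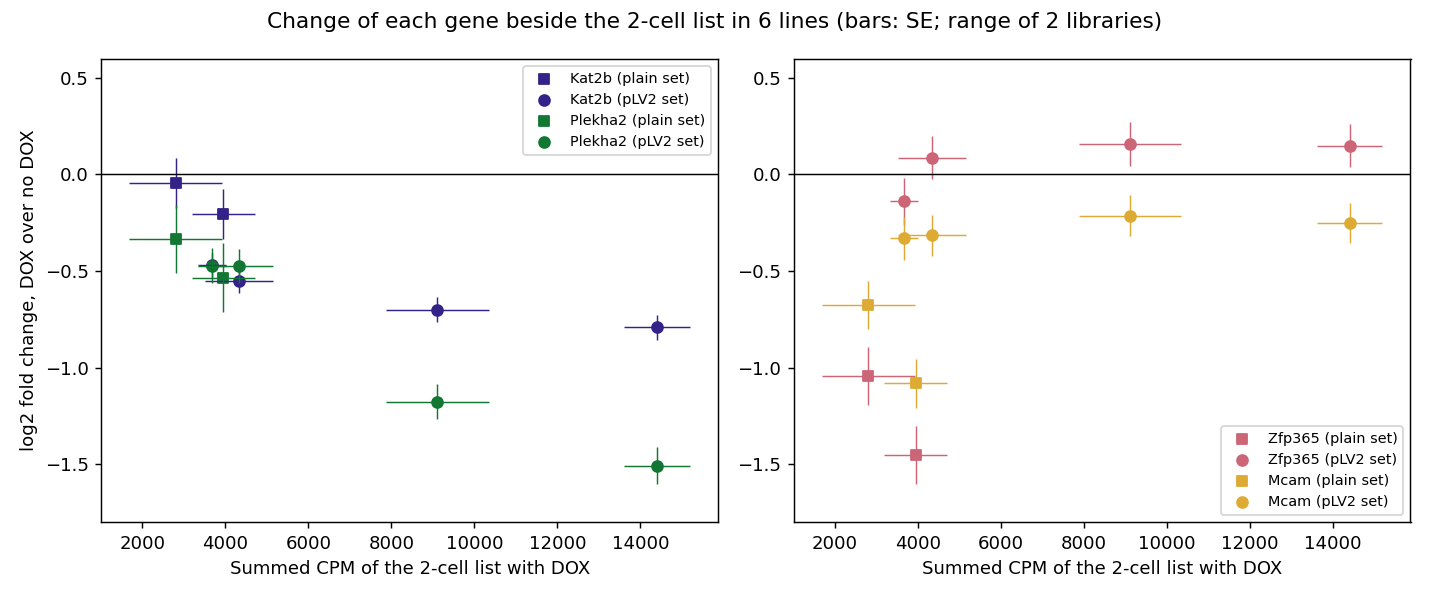
Log2 change of each gene with DOX (vertical axis, bar: SE) beside the summed CPM of the 2-cell list with DOX (horizontal axis, bar: range of 2 libraries) in 6 lines, with squares for the plain set and circles for the pLV2 set. Plekha2 is lowest at TRIM33-KO, which has the highest sum (13610 to 15195 CPM), while Zfp365 and Mcam are lowest in the plain set at sums of 1692 to 4715 CPM.

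WT and DUXBL-KO libraries were compared at each DOX state, and the calls depended on the fit. Plekha2 had the largest differences, at 22.5 ± 4.90 CPM (SD, n = 2) in DUXBL-KO against 32.7 ± 3.90 in WT without DOX and 15.5 ± 1.09 against 25.9 ± 1.65 with DOX. The log2 difference was -0.54 ± 0.18 (SE) without DOX (adjusted p 0.449, edgeR quasi-likelihood test, Benjamini-Hochberg over all genes) and -0.74 ± 0.18 with DOX (adjusted p 0.273). Mcam was at 38.5 ± 1.43 CPM in DUXBL-KO against 57.7 ± 7.69 in WT with DOX, a log2 difference of -0.58 ± 0.13 (adjusted p 0.213), and differed by -0.18 ± 0.12 without DOX (adjusted p 0.733). Zfp365 differed by 0.11 ± 0.15 and -0.30 ± 0.15 (adjusted p 0.866 and 0.560), and Kat2b by -0.02 ± 0.13 and -0.18 ± 0.13 (0.989 and 0.682). In edgeR with no term for the replicate number, 0 of the 4 genes passed without DOX, where 0.0388% of all genes did, and 0 with DOX, where 0.072% did. These shares are 7 and 13 genes, and both counts were 0 with any 1 library left out. At an unadjusted p under 0.05 there was 1 gene without DOX (8.99% of all genes) and 2 with DOX (10.1%). DESeq2 called 0 of 4 without DOX and Mcam with DOX (adjusted p 0.0404). With no filter on low counts Plekha2 (adjusted p 0.00826) and Mcam (0.00572) passed with DOX. With the replicate number as a block in edgeR, Plekha2 passed without DOX (adjusted p 0.0489), beside 440 of all genes. With DOX, Plekha2 (0.0226) and Mcam (0.0429) passed under the block, beside 485 of all genes. The labels give no shared source for a replicate number. The summed endothelial and pericyte markers were also lower in DUXBL-KO without DOX (119 to 201 CPM against 241 to 260.03 in WT) and overlapped with DOX (166 to 235 against 225 to 293 CPM). The fibroblast sums overlapped without DOX (959 to 1565 against 1329 to 1408 CPM). The part of these markers in the differences between DUXBL-KO and WT was not tested.

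In libraries labelled TRIM24-KO, Plekha2, Zfp365 and Mcam were, without DOX, higher than the average of the WT pLV2 lines, and Plekha2 and Zfp365 were higher with DOX. Plekha2 was higher by a log2 difference of 0.48 ± 0.07 (adjusted p 4.38e-05, edgeR) without DOX and by 0.83 ± 0.08 (3.91e-07) with it. Zfp365 was higher by 0.51 ± 0.09 (3.41e-04) and 0.58 ± 0.10 (1.89e-04). Both were called against each WT line alone as well, at 0.75 ± 0.09 and 0.21 ± 0.08 for Plekha2 without DOX against line 1 and line 2. Mcam was higher by 0.29 ± 0.09 without DOX (adjusted p 0.0158), a call that was lost against line 2 alone (0.14, adjusted p 0.301) and without TRIM24-KO without DOX replicate 1 (0.30, adjusted p 0.0676). With DOX Mcam differed by 0.24 ± 0.10 (adjusted p 0.0600), and it passed against line 1 alone (0.45, adjusted p 0.00639) and without line 1 with DOX replicate 1 (0.29, adjusted p 0.0443). Kat2b differed by 0.08 ± 0.05 (adjusted p 0.233) without DOX and 0.11 ± 0.06 (0.138) with it. Against line 2 alone Kat2b was higher with DOX by 0.27 (adjusted p 0.00297), and against line 1 alone it differed by -0.05 (0.604). The 3 of 4 genes called without DOX stand beside 43.4% of all genes, and the 2 of 4 with DOX beside 40.8%. The same TRIM24-KO libraries had the lowest summed fibroblast markers of the series, at 640 to 742 CPM without DOX against 1485 to 1782 in the WT pLV2 libraries, and at 652 to 703 against 1436 to 1569 with DOX. Their endothelial and pericyte sums were 128 to 142 CPM against 198 to 250.01 without DOX and 215 to 225 against 243 to 281 with it. Col1a1, Col1a2, Col3a1 and Thy1 were at most at 7.48, 3.20, 0.254 and 20.8 CPM in any library. Other genes of the list therefore made up most of the fibroblast sums, and which ones was not examined. The fibroblast sums are thus no measure of fibroblast content. The part of these markers in the differences was not tested.

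In TRIM33-KO, Plekha2, Zfp365 and Mcam were, without DOX, higher than the average of the WT pLV2 lines. With DOX Zfp365 and Mcam were higher and Kat2b was lower. The log2 differences without DOX were 0.52 ± 0.07 for Plekha2 (adjusted p 7.83e-05, edgeR), 0.31 ± 0.09 for Zfp365 (0.0221) and 0.51 ± 0.09 for Mcam (5.36e-04). With DOX they were 0.45 ± 0.10 for Zfp365 (0.00329), 0.53 ± 0.10 for Mcam (6.43e-04) and -0.20 ± 0.06 for Kat2b (0.0176). Kat2b without DOX differed by 0.0037 ± 0.05 (0.997) and Plekha2 with DOX by -0.16 ± 0.09 (0.193). These calls rested on line 1. Against line 2 alone the differences without DOX were 0.25 for Plekha2 (adjusted p 0.194), 0.19 for Zfp365 (0.536) and 0.36 for Mcam (0.109). With DOX they were 0.19 for Zfp365 (0.457), 0.32 for Mcam (0.133) and -0.04 for Kat2b (0.825). Without DOX the call of Zfp365 was also lost without TRIM33-KO without DOX replicate 1 (0.31, adjusted p 0.0985) or replicate 2 (0.36, 0.0700), and with DOX without TRIM33-KO with DOX replicate 2 (0.34, 0.0739). The call of Kat2b was lost with RLE factors (adjusted p 0.0536), with no filter on low counts (0.0627) and with DESeq2 (0.196). It was also lost without line 1 with DOX replicate 1 (0.0526), line 2 with DOX replicate 2 (0.0584), and TRIM33-KO with DOX replicate 1 (0.114) or replicate 2 (0.115). The 3 of 4 genes called stand beside 23.9% of all genes without DOX and 26.8% with it. The count of all genes went from 4323 to 2104 without TRIM33-KO without DOX replicate 2, and with DOX from 4845 to 2719 and 3084 without TRIM33-KO with DOX replicate 1 and 2. The summed fibroblast markers were 1793 to 1839 CPM in TRIM33-KO without DOX against 1485 to 1782 in the WT pLV2 libraries, and 1589 to 1663 against 1436 to 1569 with DOX. The endothelial and pericyte sums were 180.4 to 198.1 CPM against 198.07 to 250.01 without DOX and 270.5 to 274 against 243 to 281 with it. The part of these markers in the differences was not tested.

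The WT pLV2 lines differed from each other in the same genes. Without DOX, line 2 was above line 1 in Plekha2 by a log2 difference of 0.54 ± 0.09 (adjusted p 1.19e-04, edgeR) and in Mcam by 0.30 ± 0.11 (0.0332). Zfp365 differed by 0.24 ± 0.11 (0.112) and Kat2b by -0.09 ± 0.06 (0.254). With DOX, line 2 was above line 1 in Zfp365 by 0.53 ± 0.12 (0.00176) and in Mcam by 0.42 ± 0.11 (0.00709) and below it in Kat2b, by -0.32 ± 0.07 (8.58e-04), while Plekha2 differed by -0.17 ± 0.10 (0.191). The Mcam calls were lost without line 1 without DOX replicate 2 (0.19, adjusted p 0.273) or line 2 without DOX replicate 1 (0.26, 0.157), and with DOX without line 1 replicate 2 (0.32, 0.0925) or line 2 replicate 1 (0.37, 0.0559). The lines thus differed in 2 of the 4 genes without DOX, beside 38.3% of all genes, and in 3 with DOX, beside 40.1%.

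**Figure D4:**
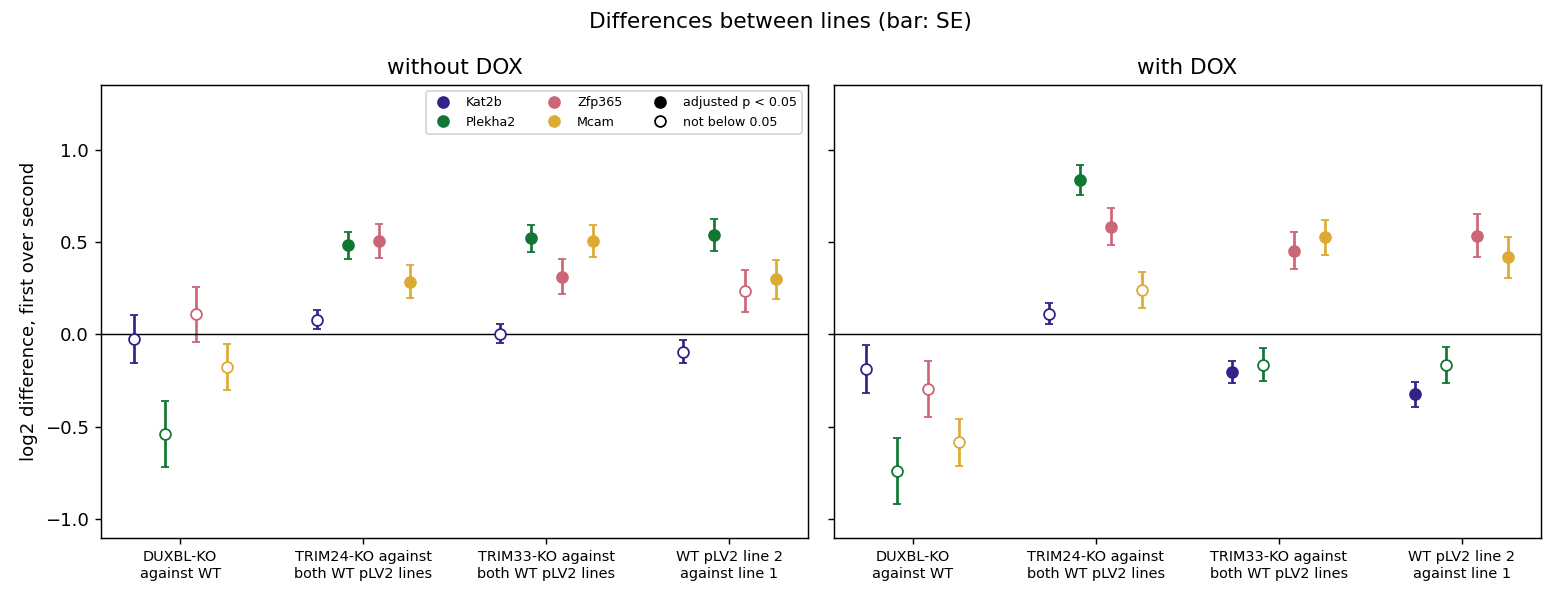
Log2 difference between lines (points) with SE (bars) for the 4 genes, without DOX on the left and with DOX on the right. Filled points have an adjusted p under 0.05 in the edgeR fit with no term for the replicate number. All points of DUXBL-KO against WT are open, and with DOX Plekha2 in TRIM24-KO is the highest point (0.83).

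Kat2a and Plekha1, the closest relatives of Kat2b and Plekha2, were not used to choose the genes and were tested with DOX. Kat2a was not called in any line, with log2 changes between -0.10 ± 0.06 (TRIM24-KO, adjusted p 0.304, edgeR) and 0.07 ± 0.11 (DUXBL-KO, 0.865). Plekha1, which encodes TAPP1, fell in all 4 pLV2 lines, and the call held with each single library left out in TRIM33-KO. Its mean went from 53.8 ± 0.24 to 43.6 ± 1.16 CPM in line 1 (-0.30 ± 0.09, adjusted p 0.0347) and from 55.2 ± 1.01 to 41.4 ± 4.53 in line 2 (-0.41 ± 0.09, 0.00316). In TRIM24-KO it went from 59.3 ± 1.25 to 47.4 ± 5.37 CPM (-0.31 ± 0.09, 0.0297) and in TRIM33-KO from 49.5 ± 5.13 to 32.4 ± 1.76 (-0.61 ± 0.10, 1.04e-04). In WT it differed by -0.06 ± 0.12 (0.950) and in DUXBL-KO by -0.15 ± 0.12 (0.674). The Plekha1 call was lost in line 1 without any 1 of its libraries (adjusted p 0.118 to 0.242), with no filter (0.0607), with DESeq2 (0.0649) and without CT010467.1 (0.0627). It was lost in line 2 without its DOX replicate 1 (0.0652), and in TRIM24-KO without its DOX replicate 2 (-0.21, 0.293) or either library without DOX (0.135 and 0.0605).

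The other genes of each pathway were counted by their calls with DOX, beside the share of all genes called. Of all genes 2.82% were higher and 0.105% lower in WT, and DUXBL-KO had 4.5% and 0.404%. Line 1 had 10% and 6.25%, line 2 had 12.7% and 14%, TRIM24-KO had 11.5% and 4.94%, and TRIM33-KO had 16.5% and 20.1%. With RLE factors the calls in line 2 were 2619 higher and 1774 lower in place of 2304 and 2534, and in TRIM33-KO 3499 and 2676 in place of 2978 and 3633. The median over all genes lay between -0.09 and -0.0028 in the 6 lines. No share of all genes was counted at an unadjusted p under 0.05 with DOX, so list counts at that threshold have no yardstick. In WT the count of all genes called went from 529 to 2 without WT without DOX replicate 2 and to 95 without WT without DOX replicate 1. The shares of the other lines depended on single libraries as well. In every line fewer genes were called lower with any 1 of its libraries left out. With any 1 library of DUXBL-KO left out its count went from 886 to between 496 and 563, and that of line 1 likewise from 2942 to between 1575 and 1945, with the lower calls from 1130 to between 268 and 546. The count of line 2 went from 4838 to 2934 without its DOX replicate 1, that of TRIM24-KO from 2969 to 1938 without its DOX replicate 2, and that of TRIM33-KO from 6611 to 4392 without its DOX replicate 1.

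Among 31 acetyltransferases and subunits of SAGA and ATAC, 0 were called in WT and DUXBL-KO by edgeR (0 by DESeq2, and 3 and 7 at an unadjusted p under 0.05), and 3 rose and 1 fell in line 1. Line 2 had 2 that rose and 9 that fell, TRIM24-KO had 3 and 1, and TRIM33-KO had 5 and 12. In TRIM33-KO the split was 6 and 8 with RLE factors and 5 and 7 with DESeq2. The list medians were 0.02, 0.06, -0.05, -0.08, 0.01 and -0.14 in the order WT, DUXBL-KO, line 1, line 2, TRIM24-KO and TRIM33-KO. Taf6l, a TAF6-like subunit of SAGA, rose in all pLV2 lines, from 22.6 ± 0.53 to 32.1 ± 2.28 CPM in line 1 (log2 change 0.51 ± 0.10, adjusted p 0.00150) up to a change of 0.63 ± 0.10 in TRIM33-KO (8.44e-05). Eny2, of the deubiquitinase module of SAGA, rose in the same lines by 0.46 to 0.57. Supt3, a SAGA core subunit, rose in line 1 (0.58), TRIM24-KO (0.47) and TRIM33-KO (0.58). The Taf6l calls held with each single library left out. Eny2 was lost in line 1 without replicate 2 without DOX (adjusted p 0.0517), and in TRIM24-KO without replicate 2 without DOX (0.0788) or DOX replicate 1 (0.151). With no filter Eny2 passed in WT (0.0331). Supt3 was lost in line 1 without replicate 2 without DOX (0.0872) or DOX replicate 1 (0.0540) or 2 (0.0679), and in TRIM33-KO without DOX replicate 1 (0.0746). In TRIM24-KO Supt3 was lost without replicate 1 without DOX (0.31, adjusted p 0.313) or DOX replicate 2 (0.24, 0.460), with RLE factors (0.0582), with no filter (0.0849), without CT010467.1 (0.0611) and with DESeq2 (0.109). The count in line 2 fell from 11 to 6 without line 2 without DOX replicate 1 and to 7 without each of the other line 2 libraries, in line 1 from 4 to 2 without replicate 2 of either group, and in TRIM24-KO from 4 to 2 without any 1 of its libraries.

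Among 30 other genes of PI3K and phosphoinositide signalling, 1 rose and 0 fell in each plain-set line. At an unadjusted p under 0.05 (edgeR) there were 3 in WT and 4 in DUXBL-KO. Line 1 had 2 that rose and 6 that fell, line 2 had 2 and 12, TRIM24-KO had 4 and 3, and TRIM33-KO had 4 and 14. In TRIM24-KO 3 were higher and 5 lower both without CT010467.1 and with RLE factors (3 and 4 with DESeq2), and in TRIM33-KO it was 5 and 10 with RLE factors. In line 1 it was 2 and 3 with DESeq2 and without CT010467.1, and in line 2 it was 2 and 6 with DESeq2. The medians were -0.09, -0.09, -0.11, -0.18, -0.02 and -0.20 in the same order of lines. Inpp4b, a phosphatase that acts on phosphoinositides, is the gene that rose in WT and DUXBL-KO and also rose in each pLV2 line. It had 0 to 3 counts in every library without DOX and, with DOX, 124 to 204 counts in WT and 491 to 818 in TRIM33-KO. Against a floor of 3 counts per library it was at least 45.8-fold higher in WT, 104-fold in DUXBL-KO, 79.7-fold in line 1, 219-fold in line 2, 157-fold in TRIM24-KO and 430-fold in TRIM33-KO. In WT it was not called without replicate 1 (adjusted p 0.0508) or 2 (0.0599) without DOX. Inpp5d (SHIP1) and Inppl1 (SHIP2) are phosphatases of the same class of lipids. Inpp5d fell in all pLV2 lines by 0.34 to 0.53 on the log2 scale. Inppl1 fell in line 1 (-0.46 ± 0.09, adjusted p 0.00207), line 2 (-0.54 ± 0.10, 5.37e-04) and TRIM33-KO (-0.68 ± 0.10, 5.19e-05), and differed by -0.28 ± 0.09 in TRIM24-KO (0.0532), where it passed with RLE factors (0.0364), no filter (0.00536), DESeq2 (0.0330) and without CT010467.1 (0.0312). The Inppl1 call in line 1 was lost without its DOX replicate 2 (0.0539). Inpp5d was lost in line 1 without replicate 1 without DOX (0.0586) or DOX replicate 2 (0.0610). In line 2 Inpp5d was lost without replicate 1 without DOX (-0.19, adjusted p 0.1999) or DOX replicate 2 (0.0696) and with DESeq2 (0.0549). With no filter Inpp5d passed in WT (1.48e-04) and DUXBL-KO (0.00258). The count of calls in line 1 went from 8 to 1 without line 1 with DOX replicate 2, to 4 without line 1 without DOX replicate 1, and to 5 without either other library. It went from 14 to 9 in line 2 (without its DOX replicate 1), from 7 to 4 in TRIM24-KO (without its DOX replicate 2 or its replicate 1 without DOX), and from 18 to 11 in TRIM33-KO (without its DOX replicate 1). In TRIM33-KO 1 gene was higher and 11 lower without its DOX replicate 2, and likewise without its replicate 1 without DOX.

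Among 28 tested p53 targets, Zfp365 apart, 0 rose and 2 fell in WT, and DUXBL-KO had 1 and 3. At an unadjusted p under 0.05 (edgeR) there were 11 in WT and 15 in DUXBL-KO. The split in WT was 2 higher and 3 lower with DESeq2 and 2 and 5 with no filter, and in DUXBL-KO it was 1 and 7 with DESeq2 and 1 and 12 with no filter. Line 1 had 5 that rose and 3 that fell, line 2 had 5 and 5, TRIM24-KO had 6 and 3, and TRIM33-KO had 9 and 6. The split in line 2, TRIM24-KO and TRIM33-KO depended on the scaling and on single libraries. In line 2 it was 7 higher and 2 lower with RLE factors, with DESeq2 and without CT010467.1, and 5 and 4 with no filter. In TRIM33-KO it was 11 higher and 2 lower with RLE factors and with DESeq2, and 1 to 3 genes were lower with any 1 of its libraries left out. For TRIM24-KO 5 were higher and 1 lower with DESeq2, while RLE factors gave 5 and 4, as did leaving out CT010467.1. The medians were -0.27 and -0.33 in WT and DUXBL-KO and -0.08, 0.05, -0.02 and 0.03 in line 1, line 2, TRIM24-KO and TRIM33-KO. Ddit4l, a stress-induced relative of the mTORC1 inhibitor REDD1, rose in DUXBL-KO from 10.2 ± 1.196 to 56.9 ± 7.75 CPM (log2 change 2.48 ± 0.34, adjusted p 0.00658) and in all pLV2 lines by 3.95 to 5.03. The DUXBL-KO call was lost without its replicate 1 without DOX (2.34, adjusted p 0.0535). In WT the Ddit4l change of 1.65 ± 0.34 had an adjusted p of 0.0528, and it passed with DESeq2 (4.30e-05), with no filter (8.10e-16) and without WT with DOX replicate 2 (2.11, 0.00117). Without WT with DOX replicate 1 the change was 1.01, and over the single libraries left out the adjusted p reached 0.300. Bbc3 (PUMA), a pro-apoptotic BH3-only protein, fell in all pLV2 lines by 0.40 to 0.76, and in WT and DUXBL-KO it differed by -1.099 ± 0.30 (adjusted p 0.162) and -1.27 ± 0.30 (0.0667). DESeq2 called Bbc3 in both (0.0321 and 0.00352), as did the fit with no filter (2.70e-04 and 2.56e-06). The Bbc3 call in TRIM24-KO was lost with DESeq2 (0.0728), without replicate 1 (0.0667) or 2 (0.164) without DOX and without DOX replicate 2 (-0.30, 0.273). The stress cytokine Gdf15 fell in all pLV2 lines by 0.76 to 1.09, and each of these calls was lost without some 1 library. These were, in line 1, replicate 2 without DOX (adjusted p 0.224) or DOX replicate 1 (0.0671) or 2 (0.155), with 0.0849 by DESeq2. In line 2 they were replicate 1 without DOX (0.0683) or DOX replicate 2 (0.0699), and in TRIM24-KO (0.0742) and TRIM33-KO (0.0622) DOX replicate 2. With no filter Gdf15 passed in DUXBL-KO (0.00783). Without WT with DOX replicate 2 the calls in WT were 2 higher and 0 lower. The calls in WT went from 2 to 0 without WT with DOX replicate 1 or either WT library without DOX. In DUXBL-KO they went from 4 to 1 without its DOX replicate 2 or either of its libraries without DOX. In line 1 they went from 8 to 4 and 5 without its DOX replicate 1 and 2, and in TRIM24-KO from 9 to 5 and 4 without replicate 1 and 2 of its group without DOX.

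Among 9 partners of Zfp365 and centrosome genes, 0 were called in WT and DUXBL-KO by edgeR (0 by DESeq2, and 0 at an unadjusted p under 0.05). Line 1 had 1 that rose and 1 that fell, line 2 and TRIM24-KO each had 1 that fell, and TRIM33-KO had 1 that rose and 2 that fell (4 and 1 with RLE factors, 2 and 1 with DESeq2), with medians between -0.14 and -0.06 over the 6 lines. Pcnt (pericentrin) fell by 0.21 in line 2 and by 0.22 in TRIM24-KO and TRIM33-KO. Nde1 fell by 0.30 in line 1 and by 0.34 in TRIM33-KO, and Cdk5rap2 rose by 0.18 and 0.19 in those lines. Only the Nde1 call in TRIM33-KO held with each single library left out. Nde1 and Cdk5rap2 were lost in line 1 without any 1 of its libraries (adjusted p 0.0736 to 0.161 and 0.0945 to 0.240) and with no filter (0.0507 and 0.119), and Cdk5rap2 also with DESeq2 (0.100). In TRIM33-KO Cdk5rap2 was lost without replicate 1 without DOX (0.115) or with DOX (0.113) and with no filter (0.258). Pcnt was lost in TRIM33-KO without any 1 of its libraries (0.0544 to 0.158), with RLE factors (0.0764) and with DESeq2 (0.108). In line 2 Pcnt was lost without replicate 1 (0.196) or 2 (0.0527) without DOX or DOX replicate 2 (0.124), with RLE factors (0.0730), no filter (0.0577) and DESeq2 (0.0973). In TRIM24-KO it was lost without replicate 2 without DOX (0.139) or with DOX (0.183). In line 1 the count of 2 became 0 without either of its DOX libraries or replicate 1 without DOX, and 1 without replicate 2 without DOX. In line 2 it became 0 without its DOX replicate 2 or either library without DOX, in TRIM24-KO 0 without its DOX replicate 2, and in TRIM33-KO 1 without replicate 1 of either group.

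Among 30 adhesion genes and partners of MCAM, 29 of which were tested in the plain set, 0 were called in WT and DUXBL-KO by edgeR (0 by DESeq2, and 0 and 3 at an unadjusted p under 0.05). Line 1 had 3 that rose and 6 that fell, line 2 had 2 and 10, TRIM24-KO had 4 and 2, and TRIM33-KO had 3 and 10. The split was 4 and 4 in TRIM24-KO with DESeq2 and without CT010467.1, and with DESeq2 3 and 7 in line 2 and 5 and 9 in TRIM33-KO. The medians were -0.04, 0.04, -0.08, -0.20, 0.06 and -0.08 in the order given before. Alcam, an adhesion molecule of the same family as MCAM, rose in the pLV2 lines from a low level, for example from 0.27 ± 0.17 to 1.94 ± 0.14 CPM in TRIM33-KO (2.82 ± 0.46, adjusted p 1.49e-04). Vcam1, another member of that family, rose in the pLV2 lines from 0 counts to at most 10. In the plain set, where it did not pass the filter on low counts, it had 0 counts without and 2 and 18 with DOX in WT, and 0 and 1 without and 6 and 9 with DOX in DUXBL-KO, and with no filter it was called in both. Pdgfrb, a receptor of pericytes and fibroblasts, fell in line 2 and in TRIM33-KO by 0.93. The Pdgfrb calls and the Alcam call in TRIM33-KO held with each single library left out. Alcam was lost in line 1 without replicate 1 (adjusted p 0.0879) or 2 (0.215) without DOX or DOX replicate 2 (0.272) and with DESeq2 (0.137). It was lost in line 2 without replicate 1 without DOX (0.0667), and in TRIM24-KO without replicate 2 without DOX (0.0636) or with DOX (0.0786). Vcam1 was lost in line 1 without replicate 1 (0.0525) or 2 (0.0593) without DOX, and in TRIM24-KO without replicate 1 (0.0845) or 2 (0.0902) without DOX or DOX replicate 2 (0.108). The count in line 1 went from 9 to 3 without its DOX replicate 2 or its replicate 1 without DOX, and to 2 without its replicate 2 without DOX. In TRIM24-KO it went from 6 to 3 without its DOX replicate 2 and to 0 without replicate 2 of its group without DOX.

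**Figure D5:**
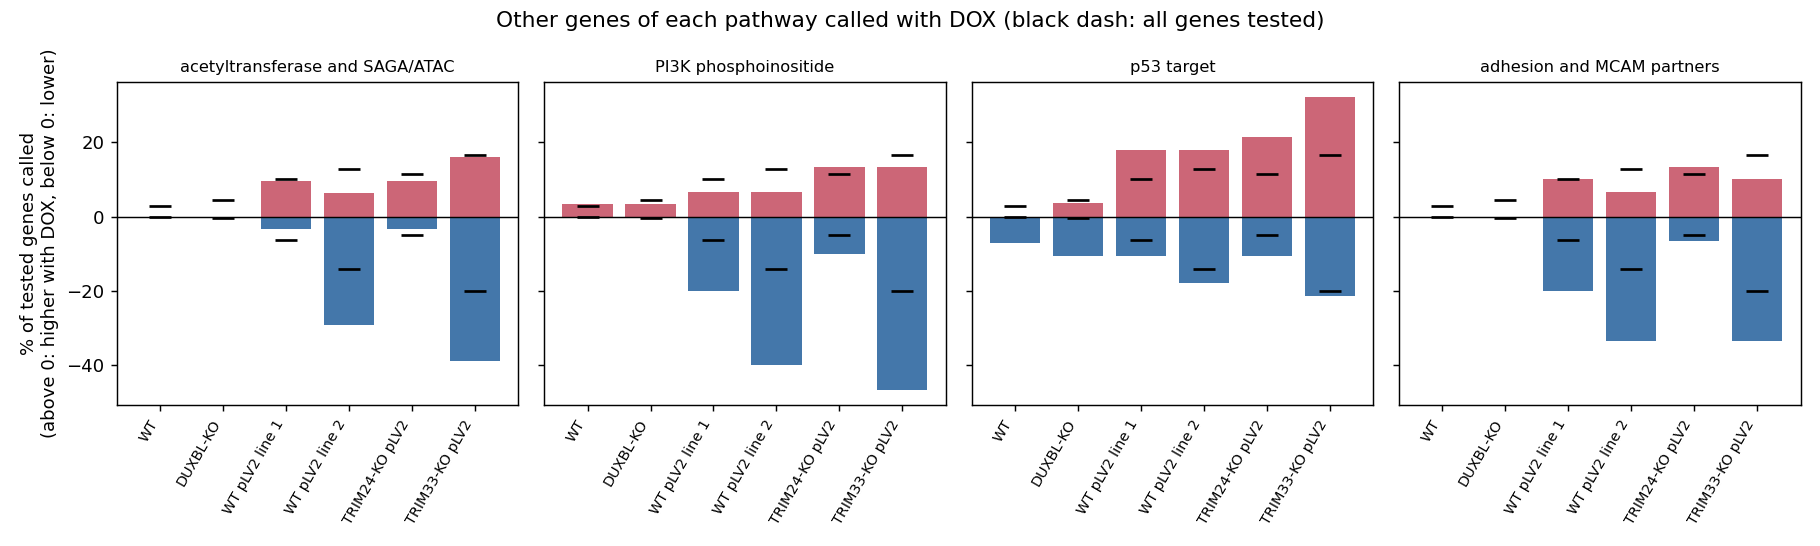
Share of tested genes called with DOX in 4 pathway lists, by line on the horizontal axis, with genes called higher above 0 and genes called lower below 0. Black dashes give the same shares over all genes, such as 16.5% higher and 20.1% lower in TRIM33-KO.

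Markers of other cell types that such cultures could hold were summed, since Mcam is known from endothelium and pericytes and the cells were grown on gelatin or on feeder fibroblasts. A list of 16 endothelial and pericyte genes summed to 119 to 260.03 CPM without DOX and to 166 to 293 with it. Within each pLV2 line the sum was higher with DOX, without overlap. It went from 240.4 to 250.01 CPM up to 273 to 281 in line 1, from 198 to 228 up to 243 to 276 in line 2, from 128 to 142 up to 215 to 225 in TRIM24-KO and from 180.4 to 198 up to 270.5 to 274 in TRIM33-KO. In WT and DUXBL-KO the ranges with and without DOX overlapped (225 to 293 against 241 to 260.03, and 166 to 235 against 119 to 201 CPM). In all 24 libraries Emcn was at 0, Cdh5 was at most at 1.102 CPM and Rgs5 at most at 0.356 CPM, whereas Tek was at 2.02 to 19.9 CPM and Vwf at 5.64 to 23.1 CPM. A list of 19 fibroblast genes summed to 640 to 1839 CPM without DOX and to 652 to 1663 with it, with Col3a1 at 0 to 0.254 CPM, Col1a2 at 0 to 3.20 CPM, Col1a1 at 0.781 to 7.48 CPM and Thy1 at 4.79 to 20.8 CPM. The lowest fibroblast sums were those of TRIM24-KO, given above beside its differences, and the fibroblast genes just named made up little of any such sum. Of the 10 fibroblast genes tested, 0 to 2 rose and 0 fell with DOX per line. Of 11 or 12 endothelial and pericyte genes tested, 1 or 2 rose and 0 to 2 fell. Of 19 pluripotency genes, 0 were called in WT and DUXBL-KO by edgeR (2 in each at an unadjusted p under 0.05). Line 1 had 4 that rose and 3 that fell, line 2 and TRIM33-KO each had 2 and 10, and TRIM24-KO had 2 and 8. The part of these lists in the changes of the 4 genes was not tested.

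Across the 24 libraries, with each gene centred within its set, log2 CPM of Zfp365 and Mcam correlated with a Pearson r of 0.833, and Kat2b and Plekha2 with 0.761. Kat2b and Zfp365 gave 0.014, Kat2b and Mcam 0.291, Plekha2 and Zfp365 0.332, and Plekha2 and Mcam 0.577. These are descriptions over libraries that share their depth, scaling and the DOX contrast, and no p is given. Among 17241 genes the patterns most like Kat2b were those of Rsbn1 (r 0.955), Kif11 (0.949), a kinesin of the mitotic spindle, and Hsd17b11 (0.941), a hydroxysteroid dehydrogenase. Those most like Plekha2 were Spred2 (0.924), an inhibitor of Ras and MAPK signalling, Cdyl (0.914), a chromodomain protein, and Zfp146 (0.899), a zinc finger protein. For Zfp365 they were Srgap2 (0.917), Slc19a2 (0.908), a thiamine transporter, and Neurod1 (0.888), a neuronal transcription factor. For Mcam they were Traf4 (0.879), Lrrfip1 (0.861) and Chpf (0.845), a chondroitin polymerizing factor. Neurod1 had log2 changes with DOX of -1.21 in WT and -1.58 in DUXBL-KO and of 0.04 to 0.55 in the pLV2 lines, a distribution over the sets like that of Zfp365. That likeness follows from its choice by correlation over the same libraries. Rsbn1 had -0.14 and -0.32 in WT and DUXBL-KO and -0.42 to -0.78 in the pLV2 lines.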

How the data were processed

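RNA from KH2 ESCs was rRNA-depleted and made into strand-specific libraries, sequenced as paired reads, per the labels' protocols. The submitters' processing notes name bcl2fastq 2.20.0, cutadapt 1.18 and STAR 2.7.6a and the build mm10. The counting tool, annotation release and treatment of multimapped reads are not given in the sources used here. The deposited tables hold the authors' raw counts per gene and repeat subfamily. Of 55487 gene IDs, 54435 matched GENCODE M21 with their version, 792 without it and 260 did not match.

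Groups followed the titles. Gene counts, with TMM factors, were fitted with edgeR 4.0.16 in R 4.3.3 (filterByExpr, 1 mean per group, glmQLFTest, 2-sided), the plain and pLV2 sets apart. This kept 18060 and 18079 genes, including all 4 members in each set, with a coefficient of variation of 17.8% and 8.55% from the common dispersion. P-values were adjusted by Benjamini-Hochberg over all kept genes, with a threshold of 0.05. CPM use effective library sizes. Gene counts per library of 11784696 to 19136869 set the counting error. Alternatives were RLE factors, DESeq2 1.42.0, no filter, a replicate block, CT010467.1 left out, single libraries left out and either WT pLV2 line alone. For the list counts, DESeq2, CT010467.1 and single libraries left out were chosen after seeing the data. So were all alternatives for the other named genes. A group left with 1 library was assumed to vary like the others. The fit was tested on simulated data.

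The 4 genes and all gene lists (acetyltransferase and SAGA/ATAC, PI3K, p53, Zfp365 partners and centrosome, adhesion, pluripotency, fibroblast, endothelial and pericyte, 2-cell) were chosen with earlier results of these data known. Genes named from a pathway list were the 3 with the largest absolute mean log2 change over the 6 lines with DOX among those called in at least 2 of them. Also named were the closest relatives of Kat2b and Plekha2, the targeted genes, and the 3 genes with the highest correlation to each of the 4.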

Additional observations from a re-analysis of the deposited data

Results flagged for a closer look

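The fitted log2 change of Zfp365 with DOX had opposite signs in different lines. It was -1.05 ± 0.15 (SE) in WT, -1.45 ± 0.15 in DUXBL-KO libraries and -0.14 ± 0.12 in line 1, each with both DOX libraries below both others. It was 0.087 ± 0.11 in TRIM24-KO and 0.15 ± 0.11 in TRIM33-KO, each with both DOX libraries above both others, as for 28% and 28.2% of all genes. The changes in line 1, TRIM24-KO and TRIM33-KO are close to their SE, and without line 1 with DOX replicate 2 that of line 1 was -0.043. The difference between these lines was not tested, and no rise is claimed.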

How the results depend on the processing

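Of 568 values of the 4 genes under alternatives, over 56 results, 505 kept direction and side of the threshold, or for the untested changes with DOX moved by less than the spread between replicates. Of 270 list counts under alternatives 195 stayed within 1.5 times. The cause of the other differences was not tested.

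Kat2b with DOX changed by -0.64 in line 2 with RLE factors and with DESeq2, and in TRIM33-KO by -0.72 with either and by -0.83 with no filter. For DUXBL-KO against WT, no filter gave -0.75 for Plekha2 and -0.59 for Mcam with DOX, and DESeq2 gave -0.58 for Mcam. For TRIM33-KO against WT with DOX, Kat2b was at -0.16 with RLE factors and DESeq2 and at -0.23 with no filter. Against line 2 alone, TRIM24-KO gave 0.14 for Mcam without DOX and 0.27 for Kat2b with DOX. Against line 1 alone it gave -0.050 for Kat2b and 0.45 for Mcam with DOX. TRIM33-KO without DOX gave -0.043 for Kat2b with line 1 as the only control. With line 2 as the only control it gave 0.25 for Plekha2, 0.19 for Zfp365 and 0.36 for Mcam. With DOX and line 2 as the only control it gave -0.042 for Kat2b, 0.19 for Zfp365 and 0.32 for Mcam.

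The labels give no shared source for a replicate number. Deviations of same-numbered libraries correlated at 0.25 to 0.55 over pairs of groups in the plain set and at -0.05 to 0.19 in the pLV2 set. With the replicate number as a block, DUXBL-KO against WT gave -0.55 for Plekha2 without DOX (edgeR adjusted p 0.0489), and with DOX -0.74 for Plekha2 (0.0226) and -0.58 for Mcam (0.0429). The block moved the count of all genes called with DOX from 529 to 961 in WT and from 886 to 1594 in DUXBL-KO, and for DUXBL-KO against WT from 7 to 440 without DOX and from 13 to 485 with it. List counts under the block were 1 for SAGA in DUXBL-KO, 3 for PI3K in WT and in DUXBL-KO, 5 and 10 for p53 in WT and DUXBL-KO, and 2 for centrosome in TRIM24-KO. Under the block Inppl1 (-0.31, adjusted p 0.0425), Ddit4l (1.60, 0.0151) and Bbc3 (-1.09, 0.0209) passed in WT, and Bbc3 in DUXBL-KO (-1.31, 0.00507).

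With no filter the list counts were 1 for SAGA and for adhesion in WT, 1 for adhesion in DUXBL-KO, 2 and 4 for PI3K and 7 and 13 for p53 in WT and DUXBL-KO, 12 for adhesion in TRIM24-KO, and for centrosome 0 in line 1 and line 2 and 2 in TRIM24-KO. With RLE factors centrosome counts were 0 in line 2, 2 in TRIM24-KO and 5 in TRIM33-KO. With DESeq2 the counts were 2 for SAGA in TRIM24-KO, 5 and 8 for PI3K in line 1 and line 2, 5 and 8 for p53 in WT and DUXBL-KO, and for centrosome 1 in line 1, 0 in line 2 and 2 in TRIM24-KO. Without CT010467.1 they were 5 for PI3K in line 1 and 2 for centrosome in TRIM24-KO. Counts of all genes with no filter were 1110 and 1540 with DOX in WT and DUXBL-KO, and for DUXBL-KO against WT 586 and 908 without and with DOX, where DESeq2 gave 177 and 172. For TRIM33-KO they were 7390 and 7801 with line 1 as the only control and 274 and 646 with line 2, in place of 4323 and 4845. The share of higher calls for TRIM33-KO went from 53.4% to 63.5% without DOX with no filter and from 56.4% to 67.2% with DOX with DESeq2 (65.8% with RLE factors). With line 2 as the only control it was 74.5% without and 78.02% with DOX, and with line 1 49.5% and 49.6%.

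With single libraries left out, the change of Kat2b with DOX ranged from -0.11 to 0.042 in WT, -0.38 to -0.079 in DUXBL-KO, -0.60 to -0.52 in TRIM24-KO, -0.81 to -0.72 in TRIM33-KO, -0.49 to -0.42 in line 1 and -0.74 to -0.62 in line 2. Mcam ranged from -1.21 to -0.996 in DUXBL-KO, -0.33 to -0.12 in TRIM33-KO, -0.80 to -0.54 in WT, -0.43 to -0.14 in line 1 and -0.26 to -0.11 in line 2. Plekha2 ranged from -0.42 to -0.21 in WT, -0.77 to -0.32 in DUXBL-KO, -0.60 to -0.37 in TRIM24-KO and -1.21 to -1.07 in line 2, and Zfp365 from 0.10 to 0.26 in TRIM33-KO and 0.011 to 0.29 in line 2. DUXBL-KO against WT without DOX ranged from -0.12 to 0.091 for Kat2b and from -0.0029 to 0.24 for Zfp365. The sign of Kat2b turned to 0.05 without WT without DOX replicate 2 and to 0.091 without DUXBL-KO without DOX replicate 1. TRIM33-KO against WT ranged from -0.011 to 0.062 for Kat2b and 0.31 to 0.36 for Zfp365 without DOX, and from -0.22 to -0.19 and 0.34 to 0.57 with it. Mcam ranged from 0.26 to 0.40 and 0.19 to 0.29 in TRIM24-KO against WT without and with DOX, and from 0.19 to 0.48 and 0.32 to 0.51 in line 2 against line 1. List counts ranged, for SAGA, from 2 to 3 in line 1, 6 to 7 in line 2 and 2 to 2 in TRIM24-KO. For PI3K they ranged from 0 to 1 in WT, 1 to 5 in line 1, 9 to 11 in line 2, 4 to 7 in TRIM24-KO and 11 to 12 in TRIM33-KO. For p53 they ranged from 0 to 2 in WT, 1 to 4 in DUXBL-KO, 4 to 6 in line 1 and 4 to 7 in TRIM24-KO. For centrosome they ranged from 0 to 1 in line 1, line 2 and TRIM24-KO and 1 to 3 in TRIM33-KO, and for adhesion from 2 to 8 in line 1 and 0 to 6 in TRIM24-KO.

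Of the other genes named with DOX, these values changed sign, none of them called as reported. Cdk5rap2 in TRIM24-KO was at -0.012 with RLE factors and DESeq2, -0.030 with no filter and -0.023 without CT010467.1, and Kat2a in TRIM33-KO was at 0.042 with RLE factors and DESeq2. With single libraries left out, ranges that crossed 0 in WT were -1.78 to 0.21 for Gdf15, -0.16 to 0.0060 for Nde1, -0.21 to 0.026 for Pcnt, -0.015 to 0.066 for Cdk5rap2, -0.65 to 0.25 for Pdgfrb, -0.11 to 0.089 for Kat2a and -0.20 to 0.088 for Plekha1. In DUXBL-KO they were -0.14 to 0.23 for Supt3, -0.39 to 0.028 for Nde1 and -0.030 to 0.13 for Kat2a. In TRIM24-KO they were -0.17 to 0.016 for Nde1, -0.020 to 0.022 for Cdk5rap2 and -0.39 to 0.14 for Pdgfrb. Kat2a ranged over -0.11 to 0.00060 in line 2 and -0.036 to 0.014 in TRIM33-KO. These settings for named genes were chosen after seeing the data.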
